A study of Mus musculus with 6 samples.

Results

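STATs are latent transcription factors that sit downstream of cytokine receptors. A cytokine brings its receptor chains together, the Janus kinases bound to those chains phosphorylate a STAT, and STAT dimers enter the nucleus and bind short palindromic DNA sites. STAT5A and STAT5B carry signals from receptors for IL-3, GM-CSF and erythropoietin in myeloid cells, STAT3 from receptors of the IL-6, G-CSF and IL-10 families, STAT4 from the IL-12 receptor, STAT6 from the IL-4 receptor, and STAT2 pairs with IRF9 downstream of interferons. SOCS proteins, several of them encoded by STAT target genes, restrain this signaling.

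The genes described are Stat2, Stat3, Stat4, Stat5a, Stat5b and Stat6, found by their symbols, 6 of the 54532 genes in the deposited table. RNA was sequenced from GFP+ leukemia cells sorted from mouse bone marrow. In both groups the leukemia was started from fetal liver cells transduced with a retrovirus carrying RUNX1-ETO9a (RE9a), a short form of the fusion protein of t(8;21) leukemia, and was passed on by serial transplantation. WT Phf6,RE9a cells carried the floxed allele without Cre (Phf6 fl/y), and VC Phf6,RE9a cells carried it with Vav1-Cre, whose promoter is active across blood cells, so that both groups share the floxed allele, the virus and the transplantation. Each group has 3 libraries, numbered 1, 2 and 3 in WT Phf6,RE9a and 11, 12 and 13 in VC Phf6,RE9a. The labels do not say whether libraries of a group come from separate mice or leukemias, so that p-values measure the spread between these samples, which may be technical. In bulk RNA, fewer cells of a type and less RNA per cell cannot be told apart.

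Total counts per library ran from 15675358 to 16817994. Phf6 itself was read at 1044, 827 and 1142 counts in WT Phf6,RE9a and at 388, 314 and 331 counts in VC Phf6,RE9a libraries, a log2 fold change of -1.66 (SE 0.13, adjusted p = 9.32e-05). The counts cover the whole gene and do not show the deleted part separately. Of the 14169 genes that passed the filter on low counts, 22.7% were lower and 21.5% were higher in VC Phf6,RE9a cells at an adjusted p under 0.05 in edgeR's quasi-likelihood test, 44.2% in either direction. Ptprc, which encodes the leukocyte antigen CD45, was read in all 6 libraries, with means of 22.7 ± 10.1 CPM for WT Phf6,RE9a and 41.1 ± 20.3 for VC Phf6,RE9a. The shares of genes called are the background against which each count below stands, and the median log2 fold change over all tested genes was 0.013. All 6 STAT genes passed the filter. Levels are given as CPM (counts scaled to a common library size) for one gene across libraries, and as FPKM (per kilobase of gene length) where genes are compared with each other. Values are mean ± SD with n = 3 per group.

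The DNA that STATs read is shown here for promoters of STAT genes and of genes described further on. The window searched was the 250 bases before each annotated RefSeq start on GRCm38.p6, in both orientations. All 6 STAT genes had an entry, with 9 windows between them. GAAANNGAAA, the core of the element bound by STAT2 with IRF9, occurred in 2.98% of all 32851 windows and in 2 of the 9 STAT windows. TTCNNNGAA, the palindrome bound by STAT dimers, occurred in 7.02% of all windows and in 0 of the 9. TTCNNNNGAA, the wider spacing preferred by STAT6, occurred in 5.85% of all windows and in 1 of the 9. Of the 29 genes listed as STAT2 and IRF9 targets, only 21 had a window, and 8 of their 25 windows (32.0%) held GAAANNGAAA. The lines below are written 5′ to 3′ along the strand of the gene, with the matched bases in capitals. The first pair are the STAT promoters with a match, the next 4 are interferon targets, and the last 3 are feedback and receptor genes.
Stat2 (chr10:128270266-128270295, plus strand): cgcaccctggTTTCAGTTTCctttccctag
Stat4 (chr1:52008133-52008162, plus strand): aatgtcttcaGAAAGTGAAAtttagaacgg
Isg15 (chr4:156200865-156200906, minus strand): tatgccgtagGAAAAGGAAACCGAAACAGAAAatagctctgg
Oas3 (chr5:120777715-120777744, minus strand): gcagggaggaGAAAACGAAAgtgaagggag
Bst2 (chr8:71537577-71537612, minus strand): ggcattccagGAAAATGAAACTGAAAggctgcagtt
Ifit1 (chr19:34640775-34640823, plus strand): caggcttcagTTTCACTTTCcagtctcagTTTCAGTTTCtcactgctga
Socs1 (chr16:10785594-10785629, minus strand): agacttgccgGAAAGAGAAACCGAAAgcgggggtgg
Socs3 (chr11:117969502-117969530, minus strand): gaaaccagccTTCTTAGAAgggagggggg
Csf2rb2 (chr15:78305722-78305746, minus strand): gtgtccacaaTTCTGAGAAgcaagc
Several matches run into each other in Isg15, Bst2 and Socs1, and in Bst2 a TTCNNNGAA match overlaps them. In Stat2 the match began 222 bases before the start, and a TTCNNNNGAA match began at 210 bases. In Stat4 the match stood 97 bases before its alternative, downstream start, and the window at the upstream start held none. A match is a run of letters in a window and does not show that a factor bound there. No window of Stat3, Stat5a, Stat5b or Stat6 held any of the 3 patterns.

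Transcripts of 4 of the 6 STAT genes fell in VC Phf6,RE9a cells and 0 rose, against 22.7% and 21.5% of all tested genes. Stat4 fell the most, Stat3 to 61.1% of its WT Phf6,RE9a level, Stat5a to 72.3% and Stat5b to 80.4%, while Stat2 and Stat6 did not pass the test. The count of 0 was also 0 at an unadjusted p under 0.05 and with DESeq2. Stat3, Stat4, Stat5a and Stat5b are among the genes that the study selected on these same libraries for a drawing of gene interactions, so that their direction here is not independent evidence. Stat2 and Stat6 are not in that drawing.

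**Figure D1:**
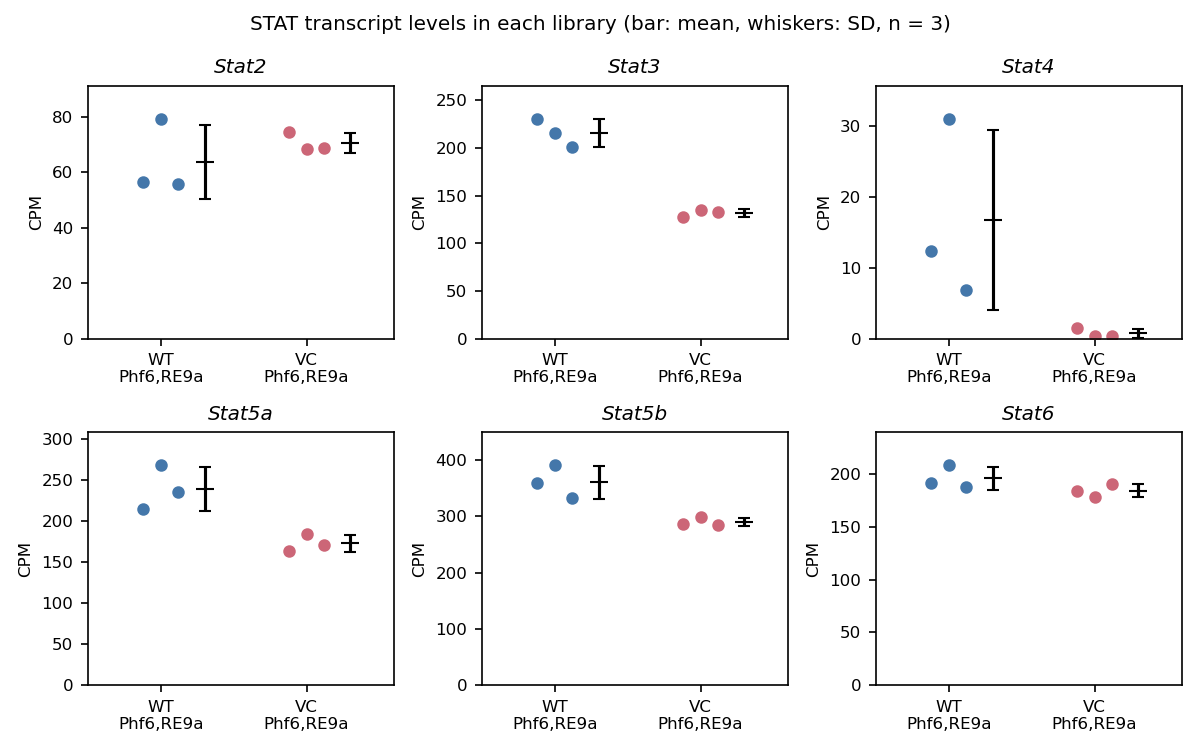
Level of each STAT gene in CPM (y axis, from 0, a separate scale per gene) in the 3 WT Phf6,RE9a (blue) and 3 VC Phf6,RE9a (red) libraries, with the mean as a bar and the SD as whiskers. The groups are apart for Stat3, Stat4, Stat5a and Stat5b and overlap for Stat2 and Stat6.

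Stat5b (ENSMUSG00000020919, chr11:100780731-100850724, minus strand) and Stat5a (ENSMUSG00000004043, chr11:100859351-100885169, plus strand) are paralogous neighbours that point away from each other across 8626 bases. Stat5a was read at 214, 268 and 235 CPM in WT Phf6,RE9a and at 164, 184 and 170 CPM in VC Phf6,RE9a libraries. Each VC Phf6,RE9a library lay below each WT Phf6,RE9a library. The mean went from 239 ± 26.8 to 173 ± 10.4 CPM, a log2 fold change of -0.47 (SE 0.10, adjusted p = 0.00862). Stat5b was read at 359, 391 and 333 CPM in WT Phf6,RE9a and at 287, 298 and 285 CPM in VC Phf6,RE9a. Again no library of one group reached into the other, and the mean went from 361 ± 29.0 to 290.0 ± 7.01 CPM (log2 fold change -0.31, SE 0.090, adjusted p = 0.0240). Libraries without overlap, in either direction, were found for 57.3% of all tested genes. The call on Stat5b was lost when WT Phf6,RE9a library 1 (adjusted p = 0.0507) or any VC Phf6,RE9a library was left out (0.0940 without 11, 0.0640 without 12, 0.0856 without 13).

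Of the 150-base stretches in their transcripts, 2.21% of those of Stat5a and 3.16% of those of Stat5b occur in both genes, and of the 100-base stretches 3.44% and 4.79%, so that some reads could be assigned to either. With the counts of both genes summed into 1 feature, the log2 fold change was -0.37 (SE 0.097, adjusted p = 0.0162). The Stat5a share of the pair, per kilobase, was 31.7%, 34.7% and 35.4% in WT Phf6,RE9a and 30.7%, 32.4% and 31.6% in VC Phf6,RE9a libraries. The shares overlapped, with means of 33.9% ± 1.97 and 31.6% ± 0.840 (exact two-sided permutation test, p = 0.2, where 3 against 3 cannot go below 0.1).

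Stat3 (ENSMUSG00000004040, chr11:100885098-100939540, minus strand) lies next along chromosome 11, tail to tail with Stat5a, with which it shares 72 exonic bases at the 3′ ends. It was read at 230.5, 215 and 201 CPM in WT Phf6,RE9a and at 127, 135 and 133 CPM in VC Phf6,RE9a libraries. The groups were far apart compared with their spread, at 216 ± 14.6 against 132 ± 3.91 CPM. The log2 fold change was -0.71 (SE 0.083, 95% confidence interval -0.90 to -0.52, adjusted p = 0.000505). Of the 14169 tested genes, 17.9% had a lower log2 fold change. The FPKM ratio of Stat3 to each of its neighbours Stat5a and Stat5b was lower for every VC Phf6,RE9a library than for any WT Phf6,RE9a library. The mean log2 ratio differed by -0.40 for Stat3 over Stat5b and by -0.24 for Stat3 over Stat5a. An exact two-sided permutation test gave p = 0.1 for each, the smallest value that 3 against 3 allows, so that it could not reach 0.05.

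On either side of this run of 3 STAT genes, the nearest 3 tested genes were also examined, and 1 of the 6 was called, Naglu, a lysosomal enzyme, at a log2 fold change of -2.40 (adjusted p = 0.000633). The closest on either side were Ghdc at -0.17 (adjusted p = 0.375) and Cavin1 at -0.36 (adjusted p = 0.461).

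Stat4 (ENSMUSG00000062939, chr1:51987148-52107189, plus strand), best known in T and NK cells, had the lowest level of the 6 in both groups. It was read at 189, 456 and 113 counts in WT Phf6,RE9a libraries, or 12.3, 30.9 and 6.84 CPM. In VC Phf6,RE9a libraries it was read at 24, 6 and 7 counts, or 1.42, 0.350 and 0.416 CPM. The WT Phf6,RE9a libraries differed widely, with library 2 the highest, and yet each lay above each VC Phf6,RE9a library. The means were 16.7 ± 12.6 and 0.727 ± 0.598 CPM, a 22.7-fold fall (95% confidence interval 6.98 to 73.8; log2 fold change -4.50, SE 0.73, adjusted p = 0.00222). Without WT Phf6,RE9a library 2 the log2 fold change was -3.71 (adjusted p = 0.00289).

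The 12 markers of T and NK cells had a summed level of 2.51 to 3.99 CPM in WT Phf6,RE9a and 10.04 to 15.6 CPM in VC Phf6,RE9a libraries, the opposite direction to Stat4. Most of that sum was Lck, at 0.612 and 5.92 CPM in the mean, and Nkg7, at 1.89 and 4.32 CPM, the 2 of the 12 that passed the filter and both called higher. None of the 12 was at 0 in all libraries, and Cd3d and Cd3e had at most 6 counts in any library. The summed level of 8 mast cell and basophil markers, among them Kit and Cpa3, moved in the direction of Stat4. It lay between 14123 and 21413 CPM in WT Phf6,RE9a and between 4918 and 5329 CPM in VC Phf6,RE9a libraries. Of the 8, 7 fell, and Ms4a2 was not called, at 1180 ± 96.2 and 1076 ± 215 CPM (adjusted p = 0.519). Kit is not confined to mast cells and basophils, as the study also uses c-Kit to define its leukemia stem cells. It reports a lower percentage of GFP+ c-Kit+ cells in VC Phf6,RE9a bone marrow. The part of either list in the fall of Stat4 was not tested. Stat4 shares 1033 exonic bases, 26.7% of its exons, with the predicted gene Gm28177 on the same strand. That gene had at most 1 count in any library, and summing both gave a log2 fold change of -4.51 (adjusted p = 0.00218). Of the 6 tested genes nearest to Stat4, 3 were called, namely Slc39a10, a zinc transporter (-0.76, adjusted p = 0.00422), Nabp1, a single-stranded DNA binding protein (-2.75, adjusted p = 0.00172), and Nab1, a corepressor of EGR factors (0.36, adjusted p = 0.0216).

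Stat6 (ENSMUSG00000002147, chr10:127642986-127660957, plus strand) was read at 192, 208 and 188 CPM in WT Phf6,RE9a and at 184, 178 and 191 CPM in VC Phf6,RE9a libraries. The groups overlapped, with means of 196 ± 10.8 and 185 ± 6.24 CPM. Its log2 fold change was -0.089 (SE 0.080, adjusted p = 0.406), and the 95% confidence interval put VC Phf6,RE9a between 82.6% and 107% of WT Phf6,RE9a. Of its 6 nearest tested genes, Nemp1, an inner nuclear membrane protein (0.72, adjusted p = 0.00192), and Myo1a, a brush border myosin at a low level (2.66, adjusted p = 0.00720), rose and 4 were not called. Nab2, one of those 4, shares 40 exonic bases with Stat6 on the opposite strand.

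Stat2 (ENSMUSG00000040033, chr10:128270559-128292849, plus strand) was read at 56.4, 79.2 and 55.7 CPM in WT Phf6,RE9a and at 74.5, 68.2 and 68.6 CPM in VC Phf6,RE9a libraries. WT Phf6,RE9a library 2 was the highest of all 6, and the other WT Phf6,RE9a libraries were the lowest. The means were 63.8 ± 13.3 and 70.4 ± 3.54 CPM (log2 fold change 0.14, SE 0.14, adjusted p = 0.454), with a 95% confidence interval from 87.6% to 139% of WT Phf6,RE9a. Without WT Phf6,RE9a library 2, Stat2 was called higher (log2 fold change 0.32, adjusted p = 0.0185). Of its 6 nearest tested genes 1 was called, Cnpy2, an endoplasmic reticulum protein (0.63, adjusted p = 0.00338).

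**Figure D2:**
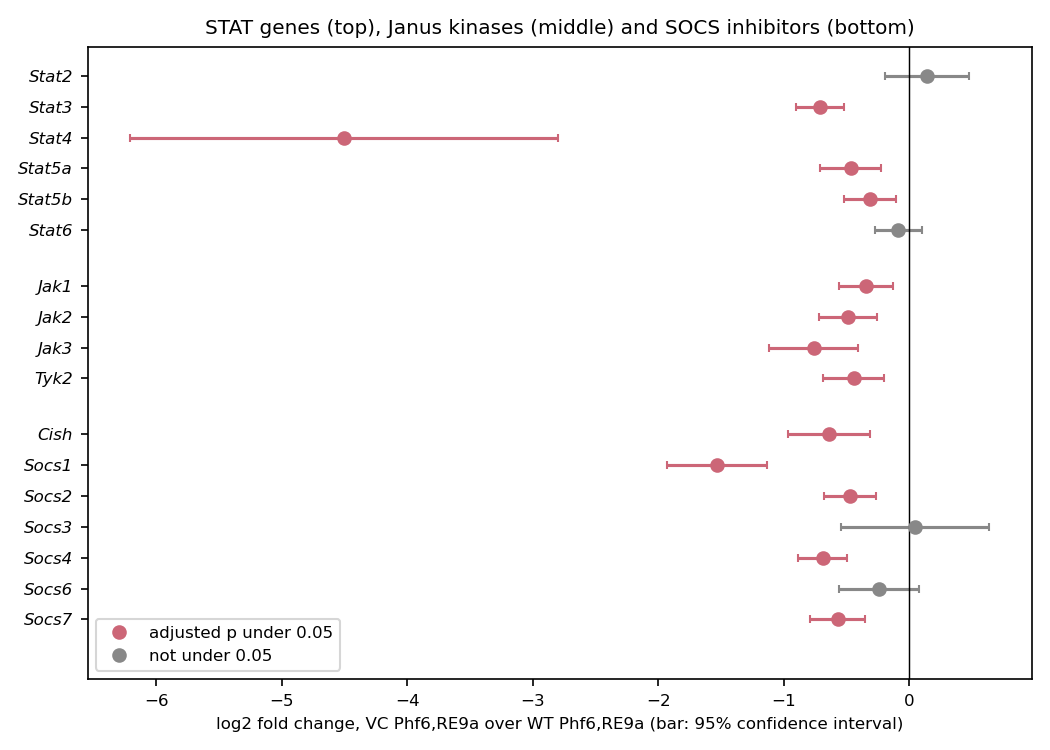
Log2 fold change between the groups (x axis, VC Phf6,RE9a relative to WT Phf6,RE9a) for the 6 STAT genes, 4 Janus kinases and 7 tested SOCS inhibitors, with 95% confidence intervals from edgeR and genes at an adjusted p under 0.05 in red. The interval of Stat4, from -6.20 to -2.80, is the widest, and the Janus kinases lie between -0.76 and -0.35.

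Per kilobase of gene, the order of levels was the same in both groups. In WT Phf6,RE9a cells Stat5b stood at 64.7 ± 5.27 FPKM, Stat6 at 44.3 ± 2.43, Stat5a at 33.3 ± 3.63, Stat3 at 22.5 ± 1.64, Stat2 at 10.7 ± 2.22 and Stat4 at 4.28 ± 3.24 FPKM. In VC Phf6,RE9a cells the FPKM values were 51.7 ± 1.53 for Stat5b, 41.4 ± 1.17 for Stat6, 23.9 ± 1.54 for Stat5a, 13.7 ± 0.435 for Stat3, 11.7 ± 0.587 for Stat2 and 0.185 ± 0.152 for Stat4. No neighbours in either order had overlapping libraries. Stat3 and Stat2 came closest in VC Phf6,RE9a cells, at 13.2 to 14.1 FPKM against 11.4 to 12.4 FPKM.

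The summed FPKM of the 6 genes went from 180 ± 16.2 in WT Phf6,RE9a to 143 ± 2.03 in VC Phf6,RE9a libraries. As a share of that sum, Stat5b made up 36.0% ± 0.814 and 36.3% ± 0.599. The share of Stat6 was 24.7% ± 0.852 among WT Phf6,RE9a libraries and 29.0% ± 1.16 among VC Phf6,RE9a libraries, and that of Stat2 was 5.91% ± 0.691 and 8.23% ± 0.492. The share of Stat3 was 12.6% ± 1.23 and 9.58% ± 0.192, that of Stat5a 18.5% ± 1.25 and 16.8% ± 0.839, and that of Stat4 2.29% ± 1.54 and 0.131% ± 0.109. Shares sum to a fixed total, so that a share can grow while its gene does not change; they were given no test.

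**Figure D3:**
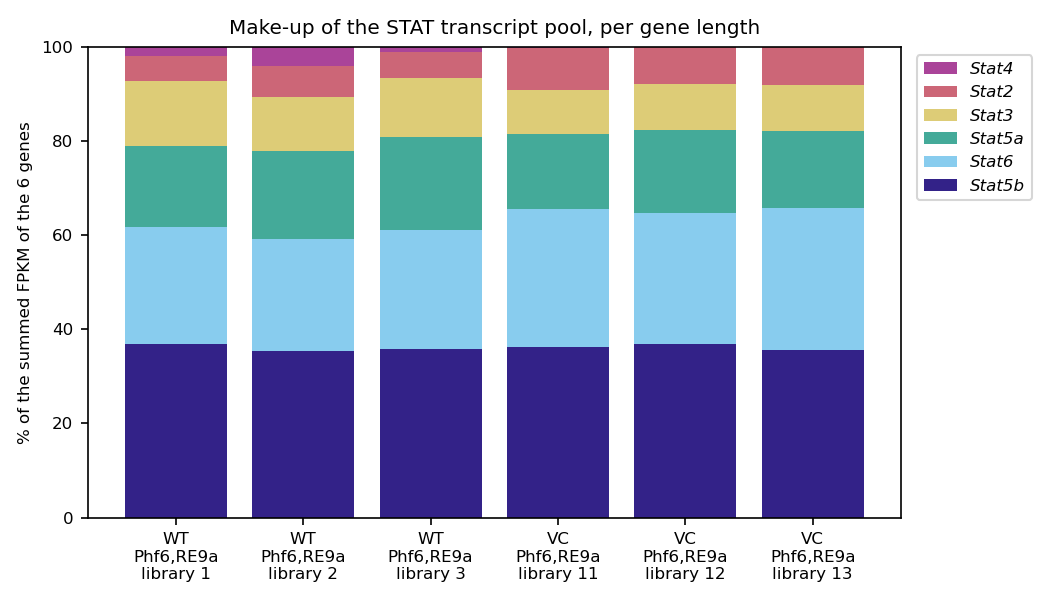
Share of each STAT gene in the summed FPKM of the 6 genes (y axis, percent), with 1 bar per library and WT Phf6,RE9a libraries at the left. Stat5b keeps about the same share in every library, between 35.4% and 36.9%, while Stat6 and Stat2 take a larger share in the VC Phf6,RE9a libraries.

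The genes whose profile over the 6 libraries was most like that of a STAT gene were found by the root mean square difference of centred log2 CPM. They were Ubxn4, Nedd4 and Cnot6l for Stat3 (0.031 to 0.036), Dnaaf5, Slc9a8 and Ipo9 for Stat5a (0.031 to 0.045), and Ing1, Pcif1 and Colgalt1 for Stat5b (0.023 to 0.026). For Stat6 they were Zfp319, Cep250 and Eif2s3y (0.026 to 0.028), and for Stat2 they were Cst3, Cnnm3 and Tor1aip2 (0.047 to 0.055). For Stat4 they were Zc2hc1c, Ccr8 and Rgs11 (0.34 to 0.39). The difference is not scaled to the size of a gene's own change, so that its values cannot be compared between STAT genes.

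Around the STAT genes, 14 lists of receptors, kinases, inhibitors, partners and targets hold 150 genes, of which 127 passed the filter. Of these 53 (41.7%) rose and 36 (28.3%) fell, and the median of their log2 fold changes was 0.36. A single list, the STAT2 and IRF9 targets, held 27 of the 53 that rose and 0 of the 36 that fell. The pooled shares and median therefore do not describe the other lists. In these lists 12 genes sit in more than 1, and some, such as Jak1, Jak2, Socs1, Csf2rb and Il2rg, were also drawn by the study from these libraries, which makes their direction no independent evidence.

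**Figure D4:**
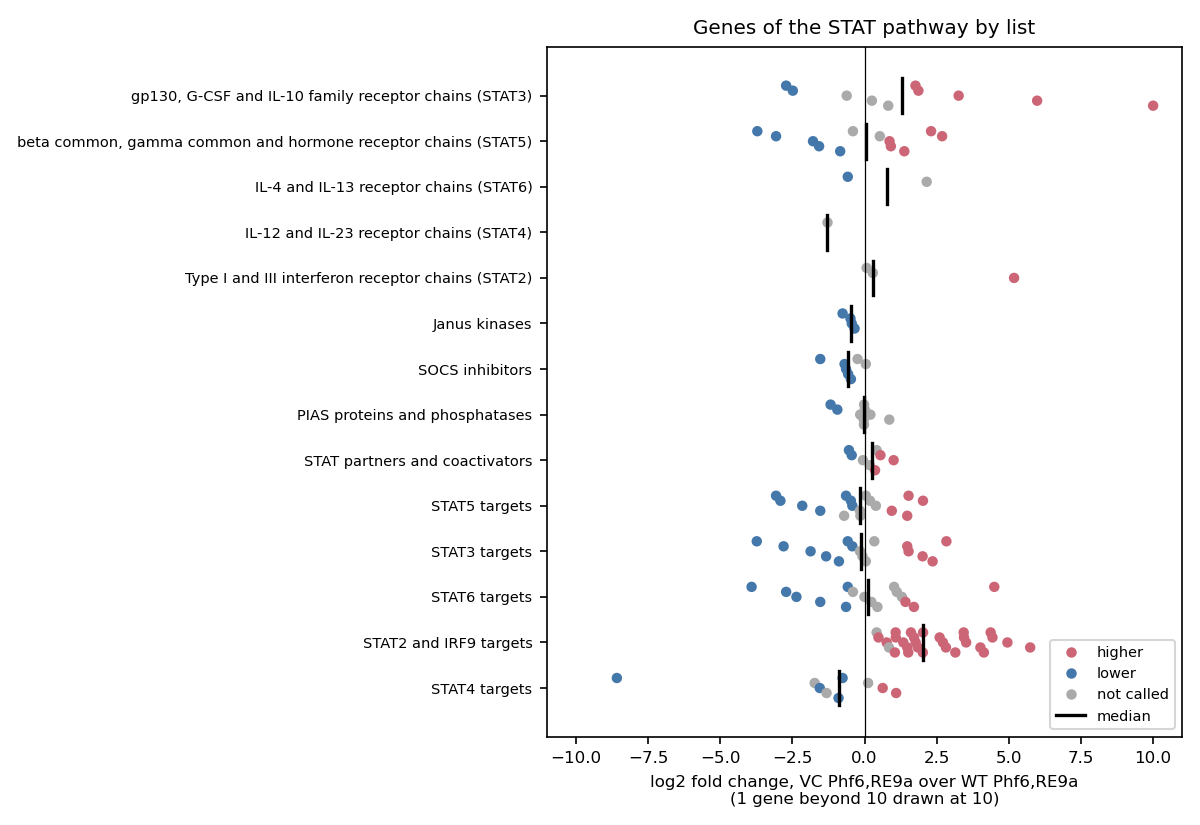
Log2 fold change between the groups (x axis, VC Phf6,RE9a relative to WT Phf6,RE9a) of each tested gene in 14 lists, with genes called higher in red, lower in blue and not called in grey, and the list median as a black bar. The median is 2.02 for STAT2 and IRF9 targets, -0.47 for Janus kinases and -0.57 for SOCS inhibitors.

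The Janus kinases, which phosphorylate the STATs, fell in 4 of 4 cases. Jak1, used by gp130, interferon and gamma common receptors, went from 491 ± 27.4 to 386 ± 24.5 CPM (log2 fold change -0.35, adjusted p = 0.0186). Jak2, the kinase of the erythropoietin and beta common receptors, went from 271 ± 27.4 to 194 ± 11.8 CPM (-0.49, adjusted p = 0.00618). Jak3, bound to the gamma common chain, went from 105 ± 17.3 to 62.1 ± 9.54 CPM (-0.76, adjusted p = 0.00562). Tyk2, the partner of Jak1 at interferon receptors, went from 131 ± 16.3 to 96.2 ± 2.70 CPM (-0.44, adjusted p = 0.0113). The libraries of the groups did not overlap for any of the 4, against 28.4% of all tested genes in that direction.

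Of the 7 tested SOCS inhibitors 5 fell, and the other 2, Socs3 and Socs6, were not called. Cish, a classical STAT5 target, went from 148 ± 24.0 to 95.1 ± 11.6 CPM (log2 fold change -0.64, adjusted p = 0.00850), and Socs2, another, from 131 ± 9.43 to 94.8 ± 5.97 CPM (-0.47, adjusted p = 0.00438). Socs1, a brake on interferon signals, whose promoter stretch with the GAAANNGAAA pattern is printed above, fell the most of the list. It was read at 861, 964 and 776 counts in WT Phf6,RE9a and at 292, 297 and 396 counts in VC Phf6,RE9a libraries (-1.53, adjusted p = 0.000422). Socs4 (-0.69, adjusted p = 0.000584) and Socs7 (-0.57, adjusted p = 0.00239) fell too. Socs3, the feedback gene of STAT3, had 10.4 ± 2.01 and 10.7 ± 3.16 CPM, and its log2 fold change was 0.044 (SE 0.25, adjusted p = 0.906).

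Among the PIAS proteins and phosphatases, which restrain phosphorylated STATs, 2 of 9 fell. Ptpn2, a nuclear phosphatase of STATs and Janus kinases, went from 182 ± 14.2 to 80.4 ± 9.49 CPM (log2 fold change -1.18, adjusted p = 0.000199), and Pias2 had -0.94 (adjusted p = 0.0195). Ptpn1 (0.20, adjusted p = 0.0577) and Ptpn6 (-0.027, adjusted p = 0.861) did not pass. Of 8 partners and coactivators 3 rose and 2 fell. The acetyltransferases Ep300 and Crebbp went opposite ways, Ep300 with 0.36 (adjusted p = 0.00944) and Crebbp with -0.44 (adjusted p = 0.0146), and the coactivator Ncoa3 had -0.54 (adjusted p = 0.0136).

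Receptor chains upstream of the STATs split in direction. Of 12 tested chains that signal through STAT5, 5 fell and 5 rose. Csf2rb, the beta common chain for IL-3, IL-5 and GM-CSF, went from 2069.5 ± 334 to 1153 ± 68.7 CPM (log2 fold change -0.84, adjusted p = 0.00263). Its mouse paralog Csf2rb2, with a TTCNNNGAA match 15 bases before the start, had -1.57 (adjusted p = 0.000236). They are close paralogs, and reads may be split between them. The mast cell and basophil markers given beside Stat4 fell along with these chains, at 7 of 8, and their part in it was not tested. Il2rg, the gamma common chain, went from 147 ± 14.2 to 42.7 ± 3.32 CPM (-1.79, adjusted p = 3.73e-05). Epor, the erythropoietin receptor, rose from 33.8 ± 1.75 to 87.7 ± 4.04 CPM (1.38, adjusted p = 4.44e-05). Epor is itself one of 7 erythroid markers, all of which rose, with a summed level of 1430 to 2166 CPM in WT Phf6,RE9a and 4589 to 5250 CPM in VC Phf6,RE9a libraries. Its place in that rise was not tested.

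Of 10 tested chains that signal mainly through STAT3, 5 rose and 2 fell. Lifr, the receptor of leukemia inhibitory factor, was read at 7, 24 and 24 counts in WT Phf6,RE9a and at 1210, 1521 and 1087 counts in VC Phf6,RE9a libraries (log2 fold change 5.98, adjusted p = 2.84e-05). Il22ra1, an IL-22 receptor chain, had 0 counts in each WT Phf6,RE9a library and 1127, 1043 and 1152 counts in VC Phf6,RE9a libraries, at least 321-fold higher against a floor of 3 counts in a single library. The list's median of 1.29 was the same with Il22ra1 at that bound. It could not have changed, because Il22ra1 stayed above the middle of the list. Il10ra, the IL-10 receptor, went the other way, from 187 ± 84.5 to 28.4 ± 2.47 CPM (-2.72, adjusted p = 0.000363).

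The tested interferon receptor chains were Ifnar1 (log2 fold change 0.071, adjusted p = 0.649), Ifnar2 (0.29, adjusted p = 0.0593) and Ifnlr1. Ifnlr1, the type III interferon chain, rose from 0.663 ± 0.118 to 24.3 ± 2.18 CPM (5.18, adjusted p = 1.87e-05). It lies beside Il22ra1 on chromosome 4, Ifnlr1 ending at position 135708181 and Il22ra1 starting at 135728172 on the same strand. Of the IL-4 and IL-13 receptor chains, Il4ra fell (-0.58, adjusted p = 0.0202) and Il13ra1, at a low level, had 2.15 (adjusted p = 0.0627). Of the IL-12 and IL-23 chains only Il12rb2 passed the filter (-1.32, adjusted p = 0.156), and Il23r had 0 counts in all 6 libraries, where 3 counts correspond to at most 0.204 CPM.

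Target genes of STAT2 with IRF9, the classical interferon-stimulated genes, rose in 27 of 29 cases, while the other 2 were not called, nor was Stat2 itself. The median log2 fold change was 2.02, and the summed level lay between 595 and 1170 CPM in WT Phf6,RE9a and between 2684 and 2910 CPM in VC Phf6,RE9a libraries. Libraries of the groups did not overlap for 28 of the 29, against 28.9% of all tested genes in that direction. Oas2, a sensor of double-stranded RNA, had 68.8 ± 50.5 and 609 ± 18.3 CPM (3.15, adjusted p = 0.00154). Ifi27l2a had 16.2 ± 3.15 and 335 ± 51.3 CPM (4.37, adjusted p = 1.92e-05). Oas1a (1.77, adjusted p = 0.000132), Isg20, an exonuclease (2.03, adjusted p = 3.86e-05), and Parp14 (1.08, adjusted p = 0.00540) rose as well. The 2 that were not called were Irf9, the partner of STAT2 (0.42, adjusted p = 0.0841), and Isg15, a ubiquitin-like modifier whose promoter match is printed above (0.85, adjusted p = 0.0861).

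WT Phf6,RE9a library 2, which held the highest Stat2 level, was the highest of the 3 WT Phf6,RE9a libraries in 24 of the 29 targets, against 35.9% of all tested genes. Without it 29 of 29 rose with a median of 2.53, and without any other single library 25 or 26 rose. Macrophage markers had a summed level of 13.3 to 26.3 CPM in WT Phf6,RE9a and 30.6 to 35.1 CPM in VC Phf6,RE9a libraries, with 1 of 7 higher, and dendritic cell markers 3.73 to 6.84 and 6.36 to 10.5 CPM, with 1 of 3 tested higher. Their part in these levels was not tested.

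**Figure D5:**
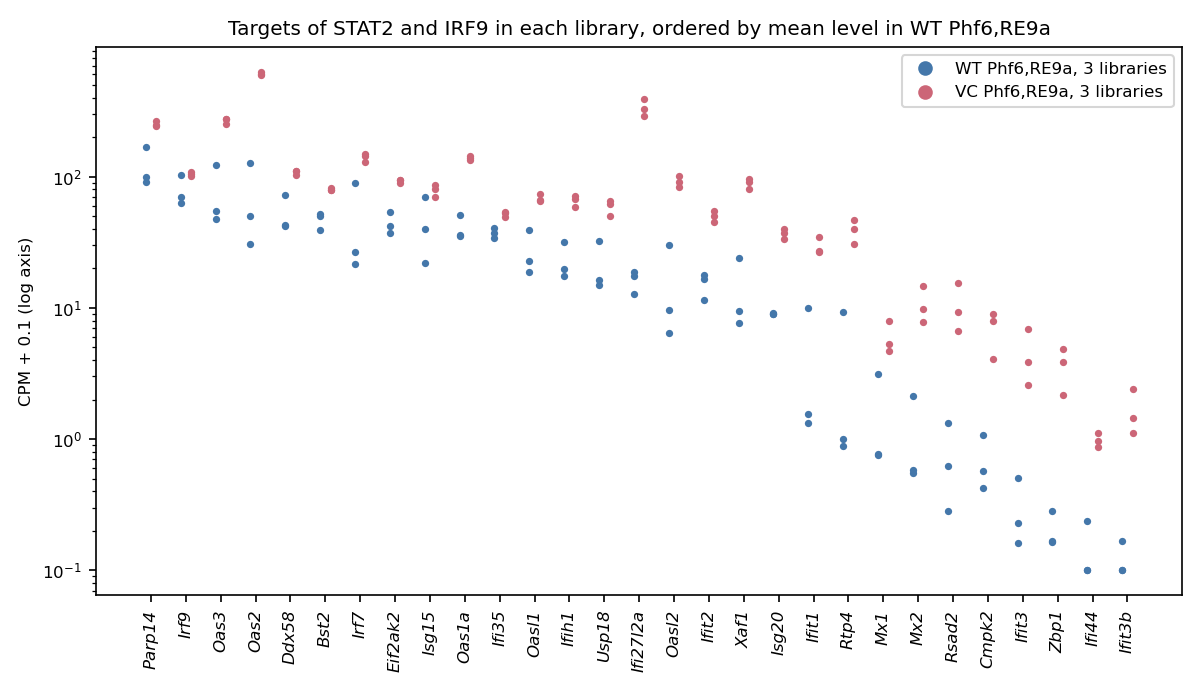
Level of the 29 targets of STAT2 and IRF9 (y axis, CPM plus 0.1 on a log axis) in the 3 WT Phf6,RE9a (blue) and 3 VC Phf6,RE9a (red) libraries, ordered by the WT Phf6,RE9a mean. The red points lie above the blue ones in 28 of 29 genes, and the exception is Irf9.

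Among targets of the STAT genes that fell, some were called in each direction, as were 22.7% (lower) and 21.5% (higher) of all tested genes. Of 17 STAT5 targets 7 fell and 4 rose, with a median log2 fold change of -0.16. The kinase Pim2 (-2.16, adjusted p = 0.000170) and the cell cycle inhibitor Cdkn1a (-2.92, adjusted p = 0.000281) fell. The highest in level, Ccnd2, a D-type cyclin, and Mcl1, a survival protein, had -0.14 (adjusted p = 0.312) and -0.16 (adjusted p = 0.355). Of 16 tested STAT3 targets 7 fell and 5 rose, with a median of -0.11. The immediate-early genes Fos (-1.87, adjusted p = 0.000614) and Junb (-1.33, adjusted p = 0.00624) and the growth factor Vegfa (-3.73, adjusted p = 0.000375) fell, and Myc rose (1.53, adjusted p = 0.00265). Among the STAT3 targets that rose, named after their values were seen, Lcn2, Hp and Cebpd are also genes of maturing neutrophils, and 10 of 10 neutrophil markers rose (summed level 167 to 531 CPM in WT Phf6,RE9a and 1032 to 3720 CPM in VC Phf6,RE9a libraries). The part of those cells in these levels was not tested.

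Of 16 tested STAT6 targets 6 fell and 3 rose, with a median of 0.12. Pdcd1lg2, which encodes the ligand PD-L2, fell from 47.2 ± 18.7 to 3.12 ± 0.408 CPM (log2 fold change -3.91, adjusted p = 9.63e-05), and Gata3 rose (1.71, adjusted p = 0.000132). Of 9 tested STAT4 targets 4 fell and 2 rose, against 22.7% and 21.5% of all tested genes, with a median of -0.90. Gzmb, the protease granzyme B, was read at 11050, 2445 and 3080 counts in WT Phf6,RE9a and at 26, 15 and 6 counts in VC Phf6,RE9a libraries (-8.58, adjusted p = 0.000236). Furin, a protease that processes precursor proteins, had -1.55 (adjusted p = 0.00408) and Ets1 had 0.63 (adjusted p = 0.00104). Ifng, Tbx21 and Prf1, the defining STAT4 targets of T and NK cells, had at most 11 counts in any library and did not pass the filter.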

How the data were processed

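The RNA-seq values of GFP+ bone marrow leukemia cells come from a table of 54532 genes that the authors deposited. The deposited read counts are not normalized. The deposited FPKM values equal those counts divided by gene length and by a library size scaled with DESeq2's size factors. The submitters' processing notes name Bowtie 0.12.0 and mm8, but 98.33% of the genes have the start and end of GENCODE M21, so that coordinates are on GRCm38. The counting tool, annotation and strandedness are not given in the sources used here. The authors' comparison columns (mean normalized counts, log2 fold changes and p-values) were not used.

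In R 4.3.3, genes with low counts were dropped by filterByExpr, libraries were scaled by TMM, and groups were tested with edgeR 4.0.16 (quasi-likelihood), with Benjamini-Hochberg adjustment over all 14169 genes tested and a threshold of 0.05. This method gave every adjusted p printed, unless another is named. CPM used the TMM-scaled libraries. Total counts were 15675358 to 16817994 per library, where 3 counts, the limit that a count of 0 allows, come to at most 0.204 CPM. This covers counting error only, because the reads carry no molecular identifiers. Within each group, libraries were further apart than sampling of reads allows (chi-square per gene 11.8 to 46.4). The test was tried on simulated data with 200 genes changed. DESeq2 1.42.0, limma 3.58.1 on log2(FPKM + 1), other scalings and filters, and leaving out each library were the alternatives. The summing of Stat4 with Gm28177 was chosen after seeing the data. Promoter windows came from RefSeq (GRCm38.p6). Figures were drawn with matplotlib 3.10.9.

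The members and the gene lists, written by hand, were chosen with earlier results of these data known. Besides the 6 genes and Phf6, the text names in each list the 3 tested genes with the smallest p and the 2 with the highest mean CPM, and the 3 genes most like each STAT gene; other genes named were chosen after their values were seen. Lists were described by counts and medians, with no set test.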

Additional observations from a re-analysis of the deposited data

How the results depend on the processing

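No paired analysis was run, because the labels do not say whether any library of one group belongs with a library of the other. Stat3, Stat4 and Stat5a kept their direction and their call under every alternative that gave a value; with at least 10 counts in every library Stat4 did not pass the filter and gave none. The log2 fold change of Stat4 ran from -5.41 to -1.99, the latter with limma on log2(FPKM + 1), a scale that understates low genes, with adjusted p-values from 1.95e-06 to 0.0121. Leaving out 1 library each gave Stat2 0.047 to 0.32, called higher only without WT Phf6,RE9a library 2, where 1 STAT gene was higher (0 otherwise), and Stat5b -0.38 to -0.26. At an adjusted p under 0.01 Stat5b, at -0.31, lost its call. The number of STAT genes that fell was 3 or 4, and of pathway genes 41 to 57 rose and 31 to 38 fell.

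In the make-up by counts in place of FPKM, the VC Phf6,RE9a minus WT Phf6,RE9a difference was -4.32 percentage points for Stat3 (-2.99 by FPKM) and 1.07 for Stat5b (0.23 by FPKM). That of Stat5b ran from -0.090 to 0.69 when 1 library was left out, and was also negative, at -0.080, without VC Phf6,RE9a library 12. The medians of 4 lists turned sign. That of the STAT5 receptors, 0.063 with the filter and libraries used in the report, was -0.39 with at least 10 counts in every library, and ran from -0.062 (without WT Phf6,RE9a library 1) to 0.27 when 1 library was left out, with -0.022 without VC Phf6,RE9a library 13. The STAT6 receptor median, 0.79 over only 2 tested genes (Il4ra at -0.58 and Il13ra1 at 2.15), was -0.57 with at least 10 counts and -0.090 with limma. The PIAS and phosphatase median was 0.015 with upper quartile scaling, and ran from -0.054 to 0.021, with 0.013 without VC Phf6,RE9a library 13. The STAT3 target median ran from -0.33 to 0.059, with 0.046 without VC Phf6,RE9a library 13. Ifnar1 ran from -0.012 to 0.19, and Ptpn6 from -0.12 to 0.049, with 0.00998 under upper quartile scaling and 0.024 without VC Phf6,RE9a library 13. The causes were not tested.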
